A study of Mus musculus with 6 samples.

Results

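Integrins are the receptors by which cells hold on to their matrix, and focal adhesions are the protein plaques that join the inner ends of integrins to actin. A set of 43 genes of this system, 20 integrin subunits and 23 adhesion plaque proteins, was read from the expression tables of primary mouse cardiac fibroblasts by gene symbol, and all 43 were among the 18059 genes of the tables. The rule uses gene names and no measured value, but the members and classes were chosen with earlier results of these data known. The cells came from hearts of C57BL/6 mice aged 1 to 2 weeks, were grown with 15% serum and received either saline (the control group, 3 libraries) or PDGF-DD, the dimer of platelet-derived growth factor D (3 libraries), for 12 hours. PDGF-DD was given at 20 µM according to the labels, a dose whose unit is doubtful for a growth factor. The protocols describe every culture as derived from animals with a global PDGF-D KO, whereas the genotype field reads control for the saline samples and PDGF-D -/- for the PDGF-DD samples. Genotype therefore either is shared by both groups or differs together with treatment, and in the second case the effects of the allele and of the agent cannot be told apart. The groups below follow the sample titles. The number of animals or cultures behind the 3 libraries of a group is not stated, so the p-values reflect library-to-library spread, and that spread may be purely technical.

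Each integrin is a pair of an alpha and a beta subunit, and the pair decides what it binds. The beta1 subunit pairs with alpha1, alpha2, alpha10 and alpha11 to bind collagen, with alpha3, alpha6 and alpha7 to bind laminin, and with alpha5 and alpha8 to bind proteins that carry the sequence Arg-Gly-Asp (RGD), such as fibronectin. The alphaV subunit also binds RGD ligands, with beta1, beta3, beta5, beta6 or beta8 as its partner. Inside the cell, talins and kindlins attach to the beta tail and switch the receptor on. Vinculin, filamin, alpha-actinin and tensins connect it to actin. Focal adhesion kinase, Src and the scaffold proteins of the Cas family pass on its signals. In the heart these contacts let fibroblasts sense and pull on collagen and fibronectin.

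The 6 libraries held between 21221114 and 21371829 estimated read counts, with 15865 to 16004 genes detected in each. Gene counts of control replicate 1 differed from those of both other controls by more than any other pair within a group (chi-square per degree of freedom 5.11 and 5.71, against 1.90 to 2.74). Leaving this library out gave 7 higher and 16 lower members, the numbers found below with all libraries. Pdgfd, the gene named in the genotype, had 118, 114 and 91 counts under saline and 69, 72 and 82 under PDGF-DD. Transcripts of Pdgfd were thus present in every library, which does not settle the genotype, since which part of the gene the allele lacks is not stated. Every PDGF-DD library held fewer Pdgfd counts than every saline library, and the part of genotype in this was not tested. Fibroblast markers were abundant, with a summed level of 7 genes between 13706 and 14987 TPM (the deposited level, scaled to transcript length) in control and between 12629 and 12927 TPM with PDGF-DD. Col1a1 and Col1a2, also listed as ligands below, gave most of this sum. Of the 7 fibroblast markers 4 were lower and 1 higher with PDGF-DD. Endothelial markers (7 genes) summed to 154 to 172 TPM in control and 150 to 153 TPM with PDGF-DD, and leukocyte markers (8 genes) to 74.5 to 87.8 and 69.7 to 77.4 TPM. In these lists 1 of 7 tested endothelial and 1 of 8 tested leukocyte markers were called lower and none higher. Among the marker lists of this paragraph, only the leukocyte sums overlapped between the groups. Markers of Schwann cells summed to 17.0 to 19.4 TPM in control and 14.8 to 16.4 TPM with PDGF-DD, and those of the epicardium to 81.0 to 88.7 and 71.3 to 78.0 TPM, both lower without overlap. Most of them were not called singly, with 1 of 4 tested Schwann cell markers and 2 of 5 epicardial markers lower. No marker of any list was at 0 in all libraries. Markers of smooth muscle cells and pericytes (8 genes, 7 tested) summed to 247 to 280 TPM in control and 220 to 232 TPM with PDGF-DD, with 4 lower and 1 higher. Among them Myh11, the smooth muscle myosin heavy chain, fell from 24.5 ± 1.30 CPM under saline to 12.0 ± 1.59 (mean ± SD of 3 libraries, as below), and Notch3 fell from 169 ± 8.21 CPM under saline to 86.6 ± 1.57. Cnn1 and Rgs5 were the other lower markers, the pericyte proteoglycan gene Cspg4 rose from 108 ± 5.41 CPM to 128 ± 3.59, and Smtn and Des were not called. CPM are library-size-scaled counts with TMM factors. The 7 cardiomyocyte markers, of which Tnnt2 gave most of the signal, summed to 311 to 335 TPM in control and 222 to 251 TPM with PDGF-DD. Of the 5 that could be tested 3 were lower and none higher. The part of these cell types in the results below was not tested. In such bulk RNA, fewer cells of a type and less RNA per cell cannot be told apart.

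After PDGF-DD, the receptors and plaque proteins changed in both directions and mostly by small amounts. Of the 40 members with enough counts to test, 7 were higher, 16 lower and 17 not called (edgeR's quasi-likelihood test, adjusted p under 0.05). The other 3 members, Itgb6, Itgb7 and the kindlin gene Fermt1, had at most 9 counts in any library and were not tested. The share of members called was 57.5%, and over all 13270 genes tested 36.5% were called, 19.1% as higher and 17.4% as lower. Abundant genes are called more often, and where mean expression reached 10 CPM the shares were 61.1% of 36 members and 44.2% of all 9130 such genes. Since the members were chosen with earlier results known, these shares were given no test. None of the called members changed 2-fold or more. Their median absolute log2 fold change was 0.35, against 0.28 for all called genes, and 13 of the 23 reached 0.3. Over all tested members the median absolute value was 0.20, against 0.15 over all genes tested. The median log2 fold change was -0.08 over the 40 tested members and -0.01 over all genes tested. The control and PDGF-DD libraries did not overlap in CPM for 27 of the 40 tested members, beside 47.1% of all genes tested. These 27 were the 23 called members and 4 members that were not called. The exact two-sided permutation test of a single gene gives p = 0.1 for each of these, the smallest value that 3 against 3 libraries allow.

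**Figure D1:**
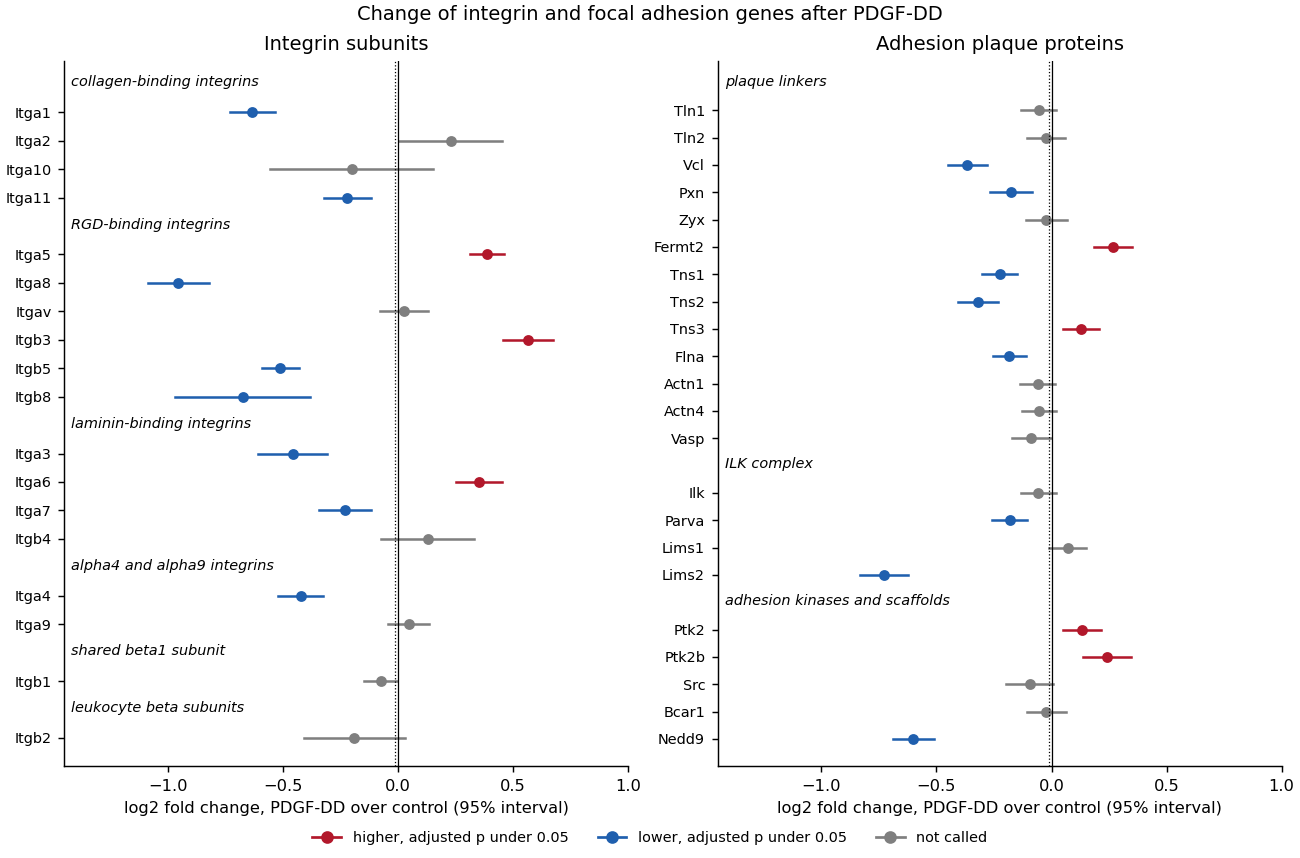
Log2 fold change of each of the 40 tested members (PDGF-DD over control, points) with 95% intervals (lines), integrin subunits at the left and adhesion plaque proteins at the right, grouped by class. Red marks the 7 called higher, blue the 16 called lower and gray the rest; the dotted line is the median of all genes tested (-0.01). In the RGD-binding, laminin-binding, linker and kinase classes red and blue points stand side by side.

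**Figure D2:**
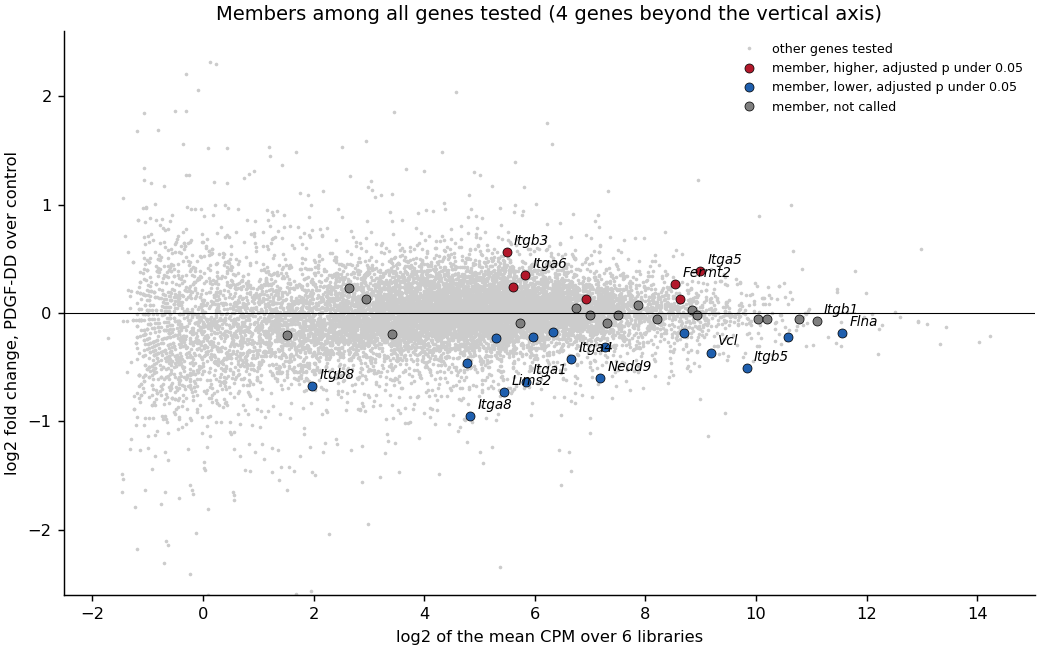
Log2 fold change (vertical axis) against the log2 of the mean CPM over 6 libraries (horizontal axis) for the 40 tested members (large points) and all other genes tested (small gray points, of which 4 lie beyond the vertical axis). Of the members 36 have a mean of at least 10 CPM, and their changes lie between -0.95 for Itga8 and 0.56 for Itgb3.

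Among the collagen-binding subunits, the main ones fell. Of 4 tested members, 2 were lower and 2 not called (50% called, beside 36.5% of all genes tested). Itga1 (Entrez gene 109700) encodes alpha1, which prefers basement membrane collagen. It stood at 66.9, 70.0 and 71.2 CPM under saline and 44.4, 43.9 and 46.0 CPM under PDGF-DD. Every PDGF-DD library lay below every control library, and the gene fell by 0.63 on the log2 scale (SE 0.05, edgeR adjusted p = 1.05e-10). Itga11 (Entrez gene 319480), the fibrillar collagen receptor of fibroblasts and the most abundant of the class at 31.4 ± 1.61 TPM in control, stood at 65.6, 66.9 and 69.1 CPM under saline and 61.6, 56.0 and 55.5 CPM under PDGF-DD. The groups did not overlap, and it fell by a smaller fold than Itga1 (edgeR log2 fold change -0.22, with SE 0.05 and adjusted p = 0.000949). The ratio of Itga11 to Itga1 in TPM was 1.19, 1.16 and 1.18 under saline and 1.68, 1.55 and 1.47 under PDGF-DD, without overlap. Itga2, a collagen receptor best known from platelets and epithelia, was at 5.74 ± 0.35 and 6.73 ± 0.38 CPM and did not pass the test (adjusted p = 0.102, 95% interval of the log2 fold change 0.01 to 0.45). Itga10, the cartilage-type collagen receptor, was at 3.08 ± 0.16 and 2.68 ± 0.64 CPM and was not called (adjusted p = 0.385).

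The RGD-binding group held the members that changed most in either direction. Of its 6 tested members 2 were higher, 3 lower and 1 not called (83.3% called, beside 36.5% of all genes tested). Itga5 (Entrez gene 16402), the alpha subunit of the classical fibronectin receptor, stood at 438, 437 and 442 CPM under saline and 572, 571 and 582 CPM under PDGF-DD. The groups were far apart relative to the spread within each (edgeR log2 fold change 0.39, with SE 0.04 and adjusted p = 3.38e-09). Itgav (Entrez gene 16410), the other abundant RGD-binding alpha subunit, ranged from 439 to 481 CPM in control and from 425 to 484 CPM with PDGF-DD. These groups overlapped, and the 95% interval of its log2 fold change was -0.08 to 0.13. The TPM ratio of Itga5 to Itgav was 1.61, 1.47 and 1.61 in control and 1.93, 2.17 and 1.94 with PDGF-DD.

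Itga8 (Entrez gene 241226) encodes alpha8, a subunit of mesenchymal and smooth muscle cells whose best known ligand is nephronectin. It fell more than any other tested member and stood at 37.0, 38.7 and 37.0 CPM under saline and 20.7, 17.7 and 19.7 CPM under PDGF-DD (edgeR log2 fold change -0.95, with SE 0.06 and adjusted p = 1.4e-11). All PDGF-DD libraries were near one another and well under the control range. Of the 7 tested markers of smooth muscle cells and pericytes 4 were lower too and 1 was higher, as given above, and the part of these cells in the change of Itga8 was not tested.

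The beta partners of alphaV other than beta1, which is given below, shifted relative to each other. Itgb5 (Entrez gene 16419), the most abundant of them at 764 ± 39.0 TPM in control, stood at 1029.5, 1084 and 1094 CPM under saline and 743, 784 and 723 CPM under PDGF-DD. It fell in all PDGF-DD libraries (edgeR log2 fold change -0.51, with SE 0.04 and adjusted p = 1.12e-10). Itgb3 (Entrez gene 16416), the beta subunit of the vitronectin receptor of wound and vascular cells, stood at 36.2, 36.4 and 36.1 CPM under saline and 50.7, 53.1 and 56.9 CPM under PDGF-DD. It rose, with control values that were almost identical (edgeR log2 fold change 0.56, with SE 0.05 and adjusted p = 4.02e-09). In TPM, Itgb3 amounted to 0.0194, 0.0187 and 0.0186 of Itgb5 in control and to 0.0374, 0.0370 and 0.0437 of it with PDGF-DD, so Itgb5 remained by far the more abundant in every library. Itgb8 (Entrez gene 320910), a partner with which alphaV binds and activates latent TGF-beta, was expressed at a low level. Its libraries held 109, 95 and 103 counts in control and 55, 63 and 76 with PDGF-DD. It fell from 4.83 ± 0.327 CPM under saline to 3.02 ± 0.486 (edgeR log2 fold change -0.68, with SE 0.14 and adjusted p = 0.000458). Itgb6, the epithelial partner of alphaV, had between 0 and 9 counts per library.

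The laminin-binding alpha subunits split. Of the 4 tested genes of this class 1 was higher, 2 lower and 1 not called (75% called, beside 36.5% of all genes tested). Itga3 (Entrez gene 16400), known from epithelia and kidney, stood at 28.5, 33.1 and 33.7 CPM under saline and 20.9, 24.3 and 24.2 CPM under PDGF-DD and fell (edgeR log2 fold change -0.46, with SE 0.07 and adjusted p = 2.49e-05). Itga7 (Entrez gene 16404), the laminin receptor of muscle cells and the most abundant of the class at 23.9 ± 1.57 TPM in control, stood at 41.2, 41.7 and 44.5 CPM under saline and 34.3, 37.4 and 37.1 CPM under PDGF-DD and fell less (edgeR log2 fold change -0.23, with SE 0.05 and adjusted p = 0.00163). Itga6 (Entrez gene 16403) moved the other way. This laminin receptor of many cell types stood at 49.9, 50.9 and 49.2 CPM under saline and 67.1, 61.8 and 62.4 CPM under PDGF-DD and rose (edgeR log2 fold change 0.35, with SE 0.05 and adjusted p = 2.42e-06). In each of Itga3, Itga7 and Itga6 the libraries of the groups did not overlap. The TPM ratio of Itga6 to Itga7 was 0.834, 0.830 and 0.758 in control and 1.34, 1.13 and 1.16 with PDGF-DD. Their order in TPM thus reversed in all PDGF-DD libraries. In CPM, which are not scaled to transcript length, Itga6 was above Itga7 in every library of both groups. Itgb4, which pairs with alpha6 in hemidesmosomes of epithelia, was at 7.40 ± 0.54 and 8.09 ± 0.34 CPM and was not called (adjusted p = 0.33).

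Of the related subunits alpha4 and alpha9, which bind fibronectin variants, tenascin and vascular adhesion proteins, 1 was lower and 1 not called. Over all genes tested 36.5% were called. Itga4 (Entrez gene 16401) stood at 108, 122 and 117 CPM under saline and 88.4, 81.8 and 88.4 CPM under PDGF-DD and fell (edgeR log2 fold change -0.42, with SE 0.05 and adjusted p = 1.29e-07). All its PDGF-DD libraries lay below the lowest control library. Itga9 (Entrez gene 104099), the more abundant at 34.5 ± 2.49 TPM in control, ranged from 99.9 to 109.6 CPM in control and from 107 to 110.0 CPM with PDGF-DD. It was not called (adjusted p = 0.432, 95% interval -0.04 to 0.13).

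Itgb1 (Entrez gene 16412), the common partner, was the most abundant member, at 1241 ± 57.4 TPM in control. It stood at 2237, 2328 and 2191 CPM under saline and 2131, 2115 and 2166 CPM under PDGF-DD. The PDGF-DD libraries were all a little lower, and the difference did not pass the test (edgeR log2 fold change -0.08, with SE 0.03 and adjusted p = 0.0962, 95% interval -0.147 to -0.0032). Under upper-quartile scaling it passed as lower (adjusted p = 0.0306), and under the other alternatives the adjusted p lay up to 0.334. Itgb2 (Entrez gene 16414), the beta subunit of leukocyte integrins, stood at 11.2, 10.9 and 12.1 CPM under saline and 11.3, 7.94 and 10.7 CPM under PDGF-DD, with overlapping groups (adjusted p = 0.174). Itgb7, the lymphocyte subunit, had between 2 and 9 counts. Of the other 6 integrin subunit genes, which are those of leukocytes and platelets, 4 could be tested and 0 were called by edgeR (0 at an unadjusted p under 0.05), and likewise 0 by DESeq2 and under every other alternative, with adjusted p in the main test between 0.27 for Itgax and 0.976 for Itga2b. Itgam, the macrophage subunit, stood at 6.89 ± 0.49 and 6.26 ± 0.51 CPM, and Itgad had no count in any library.

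**Figure D3:**
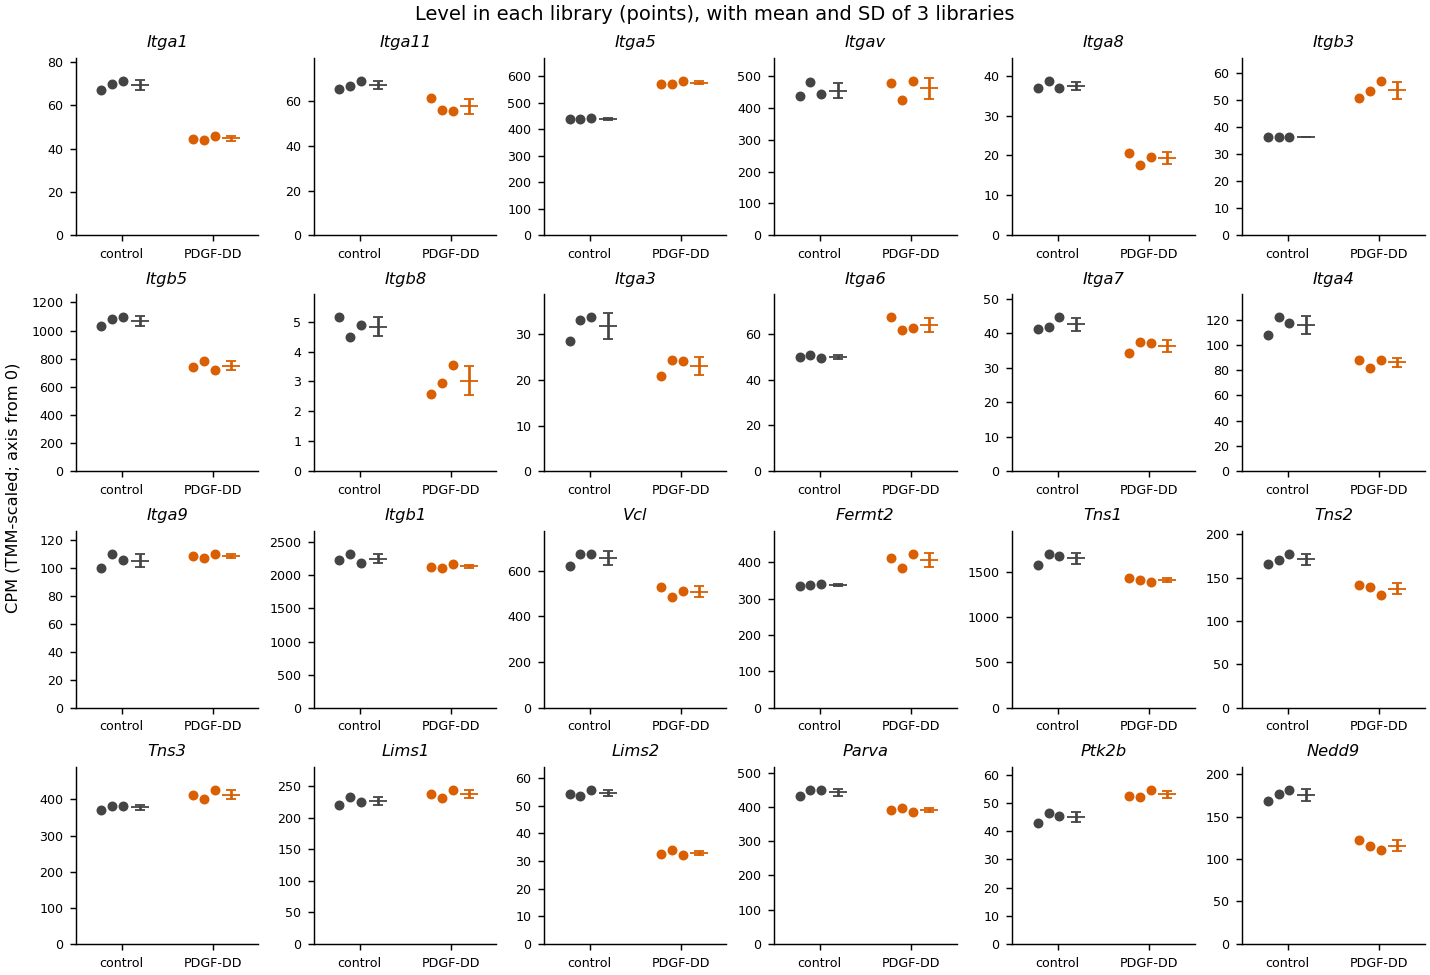
CPM in each library (points; control in gray, PDGF-DD in orange) with the mean and SD of 3 libraries (bar at the right of each group) for 14 integrin subunits and 10 plaque proteins, each on its own axis from 0. Itga1, Itga8, Itgb5, Lims2 and Nedd9 lie lower and Itga5, Itgb3 and Itga6 higher in every PDGF-DD library, and Itgav, Itga9 and Lims1 overlap.

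Within the alpha transcripts the share of Itga5 was larger with PDGF-DD, and the shares of the other RGD-binding alpha chains were smaller. The summed TPM of the 12 alpha subunits was 541, 595 and 584 in control and 625, 589 and 629 with PDGF-DD, and these groups overlapped. In FPKM, also deposited, the same sum did not overlap, with 245 to 255 in control and 264 to 277 with PDGF-DD. Sums in TPM depend on the makeup of the whole library, and control replicate 1 was the lowest control library for each class, whereas shares within a library do not have this dependence. RGD-binding subunits (alpha5, alpha8, alphaV) made up 69.0%, 68.4% and 67.8% of the alpha total in control and 74.2%, 73.8% and 74.6% with PDGF-DD. The share of collagen-binding subunits was 10.7 ± 0.23% in control and 7.70 ± 0.24% with PDGF-DD (SD, n = 3 libraries). Laminin-binding subunits held 10.2 ± 0.24% and 9.08 ± 0.29%, and alpha4 with alpha9 10.7 ± 0.33% and 9.02 ± 0.022%. The groups did not overlap for any of these 4 classes. Itga5 alone held 40.1 ± 0.94% of the alpha transcripts in control and 48.7 ± 0.91% with PDGF-DD. Itgav held 25.7 ± 0.85% and 24.3 ± 1.17%, and Itga8 2.58 ± 0.040% and 1.23 ± 0.075%, both lower with PDGF-DD without overlap. For Itgav the nearest libraries were close, at 25.003% (control 3) and 24.955% (PDGF-DD 3), and Itgav itself was not called. The larger share of the RGD-binding class thus came from Itga5 alone. Among the beta subunits the share of Itgb5 was 37.5 ± 0.80% in control and 30.9 ± 1.33% with PDGF-DD, and that of Itgb1 61.0 ± 0.85% and 67.1 ± 1.21%, although Itgb1 itself was not called. Shares of transcripts are not shares of receptors at the cell surface, which were not measured.

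**Figure D4:**
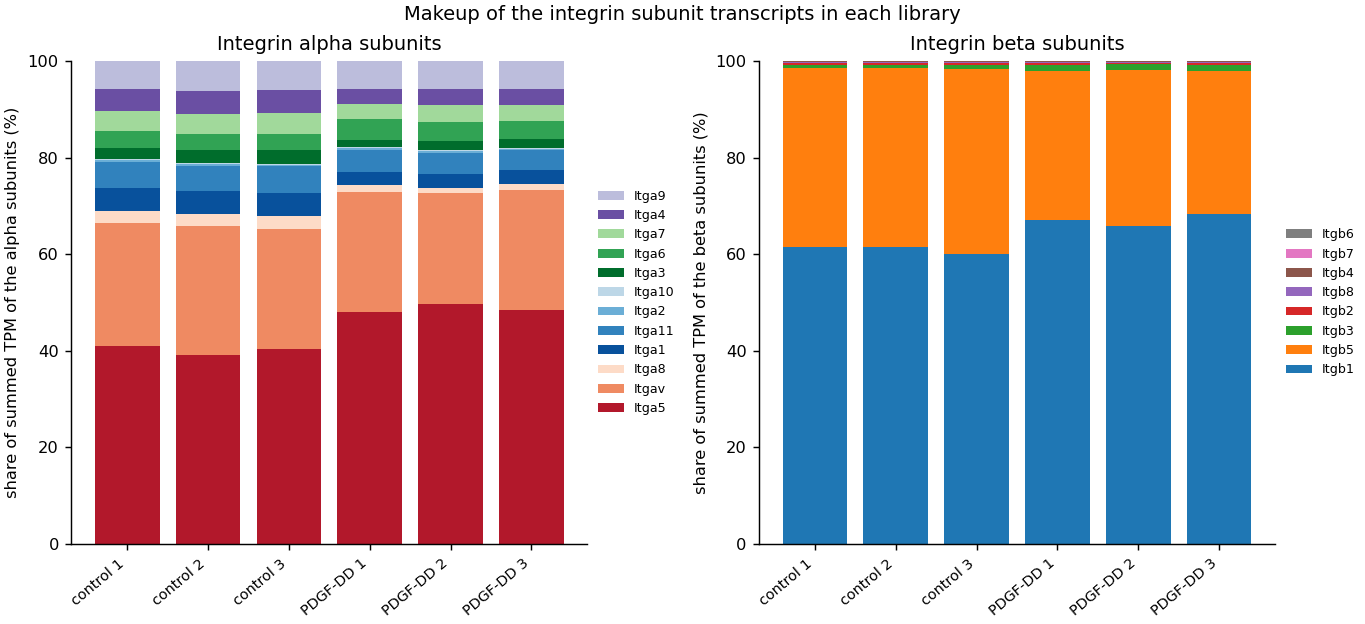
Share of each alpha subunit (left) and beta subunit (right) in the summed TPM of its kind, in percent, with 1 bar per library. Itga5 takes about 40.1% of the alpha transcripts in control and 48.7% with PDGF-DD, and Itgb5 37.5% and 30.9% of the beta transcripts.

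Of the adhesion plaque proteins, 4 were higher, 8 lower and 10 not called among 22 tested, with a median log2 fold change of -0.06. The share called was 54.5%, beside 36.5% of all genes tested and 44.2% of those with a mean of at least 10 CPM. Several core linkers between integrin and actin were abundant and not called. Actn1 (Entrez gene 109711), an alpha-actinin that cross-links actin and the most abundant plaque gene at 1104 ± 64.3 TPM in control, stood at 1720.4, 1801 and 1825 CPM under saline and 1766, 1703 and 1660.5 CPM under PDGF-DD. Its groups overlapped, and it was not called (adjusted p = 0.215, 95% interval -0.14 to 0.02). Its relative Actn4, the talin genes Tln1 and Tln2, Zyx, a LIM protein of tensed adhesions, and Vasp, an actin polymerization factor, were not called either. Their log2 fold changes lay between -0.09 for Vasp and -0.02 for Zyx, and Vasp passed as lower under upper-quartile scaling (adjusted p = 0.0401).

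Vcl (Entrez gene 22330) encodes vinculin, which reinforces adhesions under load. It stood at 619, 673 and 671 CPM under saline and 529, 484 and 511 CPM under PDGF-DD. The groups were well apart (edgeR log2 fold change -0.37, with SE 0.04 and adjusted p = 1.13e-07). Flna, the large actin cross-linker filamin A, fell from 3205 ± 123 CPM under saline to 2824 ± 55.7 (edgeR log2 fold change -0.18, with SE 0.04 and adjusted p = 0.000211), and Pxn, the adaptor paxillin, fell from 85.0 ± 2.59 CPM under saline to 75.2 ± 1.62 (edgeR adjusted p = 0.00229). Fermt2 (Entrez gene 218952), by far the most abundant kindlin gene, moved the other way, at 336, 337 and 342 CPM under saline and 412, 384 and 424 CPM under PDGF-DD. It rose in every PDGF-DD library (edgeR log2 fold change 0.27, with SE 0.04 and adjusted p = 7.89e-06). The related Fermt1 of epithelia had at most 1 count in any library. Fermt3, the remaining kindlin gene, was at 3.04 ± 0.647 and 2.71 ± 0.172 CPM and was not called (edgeR adjusted p = 0.485).

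The tensins, which bind beta tails in long-lived adhesions, differed among themselves. Tns2 (Entrez gene 209039) stood at 166, 169.7 and 177 CPM under saline and 142, 139 and 129.8 CPM under PDGF-DD and fell without overlap of the groups (edgeR log2 fold change -0.32, with SE 0.04 and adjusted p = 1.31e-06). Tns1, the most abundant tensin, fell from 1654 ± 63.2 CPM under saline to 1414 ± 18.8 (edgeR log2 fold change -0.23, with SE 0.04 and adjusted p = 1.98e-05). Tns3 rose from 378 ± 6.65 CPM under saline to 413 ± 12.5 (edgeR log2 fold change 0.13, adjusted p = 0.0097), which was not called without PDGF-DD replicate 3 (adjusted p = 0.0556). The TPM ratio of Tns3 to Tns1 was 0.334, 0.317 and 0.324 in control and 0.416, 0.412 and 0.440 with PDGF-DD.

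In the complex of the pseudokinase ILK with PINCH (Lims1, Lims2) and parvin, a stable scaffold under the beta tail, 2 of 4 members fell. This is 50% called, beside 36.5% of all genes tested. Ilk (Entrez gene 16202), its most abundant member at 399 ± 11.2 TPM in control, stood at 301, 298 and 302 CPM under saline and 283, 292 and 291 CPM under PDGF-DD. All PDGF-DD libraries were slightly lower, and the difference did not pass (adjusted p = 0.235, 95% interval -0.13 to 0.02). Lims2 (Entrez gene 225341) stood at 54.2, 53.5 and 55.6 CPM under saline and 32.6, 33.8 and 32.1 CPM under PDGF-DD and fell clearly (edgeR log2 fold change -0.73, with SE 0.05 and adjusted p = 2.14e-11). Its close relative Lims1, which can replace it in the complex, was at 226 ± 6.44 and 238 ± 6.04 CPM and was not called (adjusted p = 0.167). Reads that fit related copies of these genes may have been shared between them. The TPM ratio of Lims1 to Lims2 was 1.68, 1.79 and 1.68 in control and 3.03, 2.85 and 3.13 with PDGF-DD. Parva, the parvin of mesenchymal cells, fell from 443 ± 10.2 CPM under saline to 390.4 ± 5.70 (edgeR log2 fold change -0.18, with SE 0.04 and adjusted p = 0.000327).

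Kinases and scaffolds also went both ways, with 2 higher, 1 lower and 2 not called (60% called, beside 36.5% of all genes tested). Nedd9 (Entrez gene 18003), a Cas family scaffold that is phosphorylated by focal adhesion kinase and Src and is known from cell migration, stood at 168, 177 and 181 CPM under saline and 122, 115 and 110.1 CPM under PDGF-DD. The groups did not overlap (edgeR log2 fold change -0.60, with SE 0.04 and adjusted p = 5.53e-11). Bcar1 (Entrez gene 12927), the founding Cas scaffold and the most abundant gene of this class at 135 ± 7.58 TPM in control, stood at 185, 172 and 192 CPM under saline and 181, 178 and 181 CPM under PDGF-DD and was not called (adjusted p = 0.701, 95% interval -0.11 to 0.06). Ptk2b, a kinase related to focal adhesion kinase, rose from 44.9 ± 1.82 CPM under saline to 53.1 ± 1.29 (edgeR log2 fold change 0.24, with SE 0.05 and adjusted p = 0.000381). Ptk2, focal adhesion kinase itself, rose from 116 ± 0.781 CPM under saline to 127 ± 4.20 (edgeR log2 fold change 0.13, adjusted p = 0.0116), which was not called without PDGF-DD replicate 1 (adjusted p = 0.0558). Src was at 54.7 ± 1.94 and 51.2 ± 1.86 CPM and was not called (adjusted p = 0.14).

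The starts of these genes were searched for binding motifs of factors that are known from adhesion genes, in RefSeq promoter windows of build GRCm38.p6 (250 bases before to 50 bases after the start, both strands). Of the 43 members 32 had a window. The CArG box, the site of serum response factor, was present in 3 of them (9.38%) and in 1.81% of 27025 genes with a window. The stretches that hold it are shown because the genes differ in their change, with the CArG box in capitals. They are from Vcl, which fell (chr14:20929148-20929225, plus strand), Fermt2, which rose (chr14:45530215-45530314, minus strand), and Itgb6, which was hardly detected (chr2:60673689-60673788, minus strand).
Vcl: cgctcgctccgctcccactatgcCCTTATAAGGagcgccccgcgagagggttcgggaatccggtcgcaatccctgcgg
Fermt2: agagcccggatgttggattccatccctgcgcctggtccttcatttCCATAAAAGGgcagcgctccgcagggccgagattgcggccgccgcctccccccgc
Itgb6: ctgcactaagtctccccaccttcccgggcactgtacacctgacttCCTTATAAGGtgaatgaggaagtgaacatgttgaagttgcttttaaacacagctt

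The CArG box begins 227 bases before the start in Vcl, 204 in Fermt2 and 50 in Itgb6. The AP-1 site TGANTCA was found in 4 members (12.5%, against 8.97% of all genes with a window), namely Itga3, which fell, and Itga9, Actn4 and Zyx, which were not called. The TEAD site GGAATG was found in 5 members (15.6%, against 16.6%), namely Vcl and Flna, which fell, and Actn4, Itga10 and Itgb1, which were not called. The AP-1 match of Itga3 lies just after the start (chr11:95069149-95069231, minus strand, AP-1 site in capitals) and was the only AP-1 match in a called member.
Itga3: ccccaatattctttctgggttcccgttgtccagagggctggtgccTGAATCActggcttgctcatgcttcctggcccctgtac

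A match is a stretch of letters and does not show that a factor binds there. Of the 12 members with a window that fell, 1 had the CArG box, 1 the AP-1 site and 2 the TEAD site. Of the 3 members with a window that rose, 1 had the CArG box.

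Other genes of adhesion plaques and integrin signaling, 51 in a list that holds no member, also changed in both directions. All were tested, and 11 were higher, 15 lower and 25 not called, with a median log2 fold change of -0.06. The share called was 51%, beside 36.5% of all genes tested and 44.2% of those with a mean of at least 10 CPM. The adaptors Sorbs2 and Sorbs3, which bind vinculin, were lower. Sorbs2 fell from 175 ± 3.28 CPM under saline to 81.2 ± 4.31 (edgeR log2 fold change -1.11, with SE 0.04 and adjusted p = 2.91e-16), and Sorbs3 fell by 0.56 on the log2 scale. Csrp1, a LIM protein of actin bundles and the most abundant gene of the list, fell from 530.1 ± 25.3 CPM under saline to 365 ± 4.92 (edgeR adjusted p = 6.62e-11). Pak1, a kinase downstream of the small GTPase Rac that acts on adhesion turnover, rose from 17.9 ± 1.30 CPM under saline to 38.0 ± 1.38 (edgeR log2 fold change 1.08, with SE 0.07 and adjusted p = 1.35e-12). Fhl3, a LIM protein, rose by 0.46 and the matrix coreceptor Sdc4 by 0.34 on the log2 scale. Parvb, the relative of Parva, rose from 34.9 ± 0.270 CPM under saline to 47.2 ± 0.801 (edgeR log2 fold change 0.44, with SE 0.05 and adjusted p = 1.52e-07).

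The matrix ligands of the integrin classes are given beside their receptors. All 10 collagen chains listed as ligands fell, with a median log2 fold change of -0.19. The share called was 100%, beside 36.5% of all genes tested and 44.2% where mean expression reached 10 CPM. Each chain was well above that level in every library, and changes as small as -0.10 for Col4a1 and -0.11 for Col4a2 were called. The number lower was between 8 and 10 under the alternatives. Col3a1 fell from 11329.6 ± 272 CPM under saline to 9274 ± 137 (edgeR log2 fold change -0.29, with SE 0.03 and adjusted p = 8.3e-08), and Col6a1 and Col6a2 fell by 0.31 and 0.30 on the log2 scale. Col1a1, the most abundant chain, fell by 0.22. Of 11 tested RGD-type and related ligands 5 rose, 3 fell and 3 were not called (72.7% called, beside 36.5% of all genes tested). Tnc (tenascin C) rose from 1065 ± 15.7 CPM under saline to 2128 ± 75.8 and had the smallest p of the risen genes. Ltbp1, which holds latent TGF-beta in the matrix, rose from 42.9 ± 0.137 CPM under saline to 86.3 ± 4.86 (edgeR log2 fold change 1.01, with SE 0.05 and adjusted p = 3.09e-14), Npnt (nephronectin) rose from 63.6 ± 1.21 CPM under saline to 93.2 ± 5.66 (edgeR adjusted p = 1.11e-09) and Spp1 (osteopontin) rose from 79.2 ± 4.44 CPM under saline to 107 ± 4.25. Npnt and its receptor subunit Itga8 thus changed in opposite directions. Tgfb3 fell from 226 ± 11.8 CPM under saline to 164 ± 2.61 (edgeR log2 fold change -0.47, with SE 0.04 and adjusted p = 1.63e-09), Fbn1 (fibrillin) fell by 0.28 on the log2 scale, and Fn1, the most abundant ligand of the list, by 0.27 while Itga5 rose. Vitronectin (Vtn), the ligand of alphaV with beta3 or beta5, was too low to test.

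Laminin chains mostly fell: 6 of 10 tested were lower, 1 higher and 3 not called, with a median log2 fold change of -0.26. The share called was 70%, beside 36.5% of all genes tested. The number lower was 4 without control replicate 2 and without PDGF-DD replicate 1 or 3. Lama5 fell from 208 ± 3.75 CPM under saline to 143 ± 1.32 (edgeR log2 fold change -0.54, with SE 0.04 and adjusted p = 2.33e-11), and Lamb2, Lama2 and Lamc1, the most abundant chain, fell by 0.35, 0.28 and 0.25 on the log2 scale. Lamb1 rose from 790.4 ± 29.9 CPM under saline to 898 ± 23.4 (edgeR adjusted p = 0.000368).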

How the data were processed

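The labels' protocols describe poly(A) selection on oligo(dT) beads, random priming and sequencing of DNA nanoballs. The submitters' processing notes name HISAT2 2.0.4, Bowtie2 2.2.5, RSEM 1.2.12, DESeq2 1.4.5 and build mm9, without roles. Which annotation and strand setting the counting used is not given in the sources used here. Overlapping genes or close copies may therefore share reads. The authors deposited, per the file headers, 1 table per library with estimated counts (not normalized; 31.9% to 32.6% are not whole numbers), TPM values and FPKM values, both scaled by the authors to length and library.

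Estimated counts were rounded, filtered with filterByExpr (13270 genes left), scaled with TMM factors and tested across all genes in edgeR 4.0.16 (robust quasi-likelihood fit, two-sided F test, R 4.3.3) with Benjamini-Hochberg adjustment. Each SE was derived from the F statistic and the log2 fold change, and intervals cover 95%. CPM values are means ± SD of 3 libraries. Sums, shares and ratios between genes use the deposited TPM and have no test. The SE of the log2 fold change grew as counts fell, up to 0.17 for Itga10, the least abundant tested member.

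The members, classes and lists were chosen with earlier results of these data known. Full values are given for called members with an absolute log2 fold change of at least 0.3 and for the most abundant member of each class; of the other lists, the most abundant gene and, per direction, up to 4 called genes of smallest p are named, except where a gene is not reported here. Alternatives were other scalings (upper quartile, RLE, total count), other filters (none, or at least 1 CPM in 3 libraries), DESeq2 1.42.0, a replicate block, leaving out each library, and FPKM or CPM for the sums. Promoter sequences are from RefSeq (GRCm38.p6) and were matched by gene ID. Since that build differs from mm9, no coordinates are given for the counts.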

Additional observations from a re-analysis of the deposited data

How the results depend on the processing

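Counts and fold changes were recomputed under 13 alternatives, and the ratios of the summed TPM levels under 8, none of which moved a ratio beyond the replicate SD. The groups' sums over the alpha subunits overlapped in TPM and CPM and did not overlap in FPKM. The number of members called higher was 7, and 6 without PDGF-DD replicate 1 or 3, and the number called lower was 16, and 18 under upper-quartile scaling. Of the 23 called members 21 were called in the same direction under every alternative, and none reversed. The exceptions were Tns3 and Ptk2, and Itgb1 and Vasp were added under upper-quartile scaling. The counts for collagen-, RGD- and laminin-binding integrins were equal under all alternatives. The median log2 fold change of the RGD-binding class was near 0 without the low-count filter (0.03) and in DESeq2 (0.03), where Itgb6 enters, against -0.24 in the main test, and it is not used above. That of the collagen-binding class lay between -0.29 without PDGF-DD replicate 2 and -0.11 without PDGF-DD replicate 3, against -0.21. Across the lists, Crkl, Crk, Dock1, Col4a1, Col4a2, Lama1 and Lama4 lost their calls under some alternatives, and Cav1, Flnc, Kank1, Lpxn, Mfge8, Parvg and Tns4 gained one. The replicate block changed the call of no member: 7 were higher and 16 lower with it. Libraries with the same number showed no sign of pairing (correlations of deviations from the group means -0.07, -0.09 and -0.03). A shared culture or preparation that left no common deviation would not be seen in this way. Depth limits the less abundant members most: the SE was 0.17 for Itga10, 0.14 for Itgb8, 0.11 for Itgb2 and 0.04 for Itga5.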
